A study of Mus musculus with 16 samples.

Results

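The comparison described here sets cultured neural cells of the embryonic mouse cortex against the embryonic fibroblasts from which a chemical conversion to neural stem-like cells was started. It uses 4 of the 16 RNA-seq libraries of the study, chosen by their labels alone. The neural controls are SCR029, a commercial neural stem cell line of C57BL6 background from the cortex of embryonic day 15 to 18, and pri-NPCs, primary cortical progenitors of E13.5 embryos on a 129xC57BL6 background, with 1 library each. The starting cells, called D0, are tdMEFs, untreated embryonic fibroblasts of 129xC57BL6 background carrying Fsp1-Cre and a ROSA26 tdTomato reporter, in 2 libraries. They were grown with 10% serum at 20% oxygen. The Fsp1 promoter belongs to S100a4, so the tracing marks cells with a history of S100a4 expression. No medium is given in the labels for the neural cells, so cell type, culture and age cannot be told apart as sources of a difference. SCR029 and D0 replicate 1 were in batch 1, and the pri-NPCs and D0 replicate 2 in batch 2. SCR029 is 1 line and the pri-NPCs 1 preparation, so they are different cells under 1 group name, and each is given on its own as well.

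Neural stem cells of the embryonic cortex, the radial glia, line the ventricle, divide there, and give rise first to neurons and later to glia. They are known for the transcription factors Sox2 and Pax6, the intermediate filament nestin and Notch signalling, which holds back differentiation, and in culture they are usually kept dividing with EGF and FGF. Embryonic fibroblasts are mesenchymal cells that secrete collagens, pull on their matrix through actin stress fibres, and keep a Hox code set by the body position they came from, whereas the forebrain forms in front of the Hox domains.

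The 4 libraries held 31172513 to 45096366 counts. Mitochondrial rRNA took 47.4% of the counts in SCR029 and 32% in the pri-NPCs, against 22.6% and 14.3% at D0, and leaving its genes out gave 4265 called genes in place of 4222. Levels below are TMM-scaled CPM (counts scaled to a common library size), a scaling that equalises libraries on the bulk of their genes. Values at D0 are given for replicate 1 and then replicate 2. D0 replicate 2 stood apart by genes of macrophages and related blood cells. The 15 myeloid markers summed to 2.22 CPM in SCR029, 2.6 CPM in the pri-NPCs, 15.3 CPM in D0 replicate 1 and 3813 CPM in D0 replicate 2, and all 15 were higher in replicate 2. Genes of the sex chromosomes also differed within groups. SCR029 had 596 CPM of Xist, the RNA of the inactive X chromosome, and 0.0284 to 0.568 CPM of each of 4 Y-linked genes. The pri-NPCs had 70.6 CPM of Xist with 14.5 to 63.4 CPM of the Y-linked genes. D0 replicate 1 had 4.0 CPM of Xist with 26.3 to 60.0 CPM of the Y-linked genes, and D0 replicate 2 had 364 CPM with 8.21 to 17.7 CPM. Xist and Y-linked transcripts were thus found side by side in the pri-NPCs and in D0 replicate 2.

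The labels were checked on defining genes. Sox2, a transcription factor of neural stem cells, had 44.4 CPM in SCR029 and 97.6 CPM in the pri-NPCs, against 0.417 and 0.0261 CPM at D0. Nes, which encodes nestin, had 334 CPM in SCR029 and 533 CPM in the pri-NPCs, against 29.4 and 18.6 CPM at D0. Col1a1, the main fibrillar collagen of fibroblasts, had 3.01 CPM in SCR029 and 3.82 CPM in the pri-NPCs, against 8827 and 8958 CPM at D0. S100a4, whose promoter drives the tracing Cre, had 1.02 CPM in SCR029 and 0.167 CPM in the pri-NPCs, against 170.3 and 204 CPM at D0. In each of these 4 genes the groups stood clear of each other in the direction of their labels. The cortical label was met in part. Pax6 and Otx1, whose values are given with their lists, were higher in both controls. Emx1, the dorsal cortical marker, had 0 CPM in SCR029 and 0.0239 CPM in the pri-NPCs, against 0 and 0 CPM at D0, and Tbr1 and Eomes, factors of newborn cortical neurons and intermediate progenitors, stayed at or under 0.398 CPM in both controls.

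Between the controls and D0, 4222 of 17636 genes tested were called, which is 23.9% (edgeR's quasi-likelihood test, Benjamini-Hochberg adjusted p under 0.05). Of these, 1780 were higher (10.1%) and 2442 lower (13.8%) in the controls. The spread was estimated from all 16 libraries in 6 groups. A fit of the 4 libraries alone called 1498 genes, 698 higher and 800 lower, and leaving out D0 replicate 2 called 2628. Without any scaling factor, which moves the median log2 change over all genes from -0.02 to -0.29, the split was 1079 higher and 2014 lower, and without D0 replicate 1 it was 1002 and 2086. P-values thus rest on the spread within groups over all 16 libraries, and not on that of the 4 alone. The 2 controls are different cells, so their spread includes the difference between them. For the other groups the labels do not say whether libraries come from separate cultures, so their spread may be technical in part.

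Each control was also compared with the D0 library of its own batch, as a log2 ratio with 1 CPM added and no test. SCR029 was past 8-fold above D0 replicate 1 for 359 genes (2.04%) and below it for 664 (3.77%). The pri-NPCs were past 8-fold above D0 replicate 2 for 427 genes (2.42%) and below it for 675 (3.83%). Both ratios were past 8-fold upward for 248 genes and downward for 385, and in opposite directions for 3. Of the called genes, 4159 (98.5%) had the same sign within both batches. The calls were made from the same libraries, which favours such agreement, so the share is no independent support. The plot of the ratios shows both arms of this pattern. It also shows called genes close to the axes, for which 1 control or 1 D0 library carried most of the difference. The libraries of a group ranked genes more alike than libraries across groups, with Spearman's rho of 0.933 between the controls and 0.95 between the D0 libraries, against 0.775 to 0.825 across, given over genes and without a test.

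**Figure D1:**
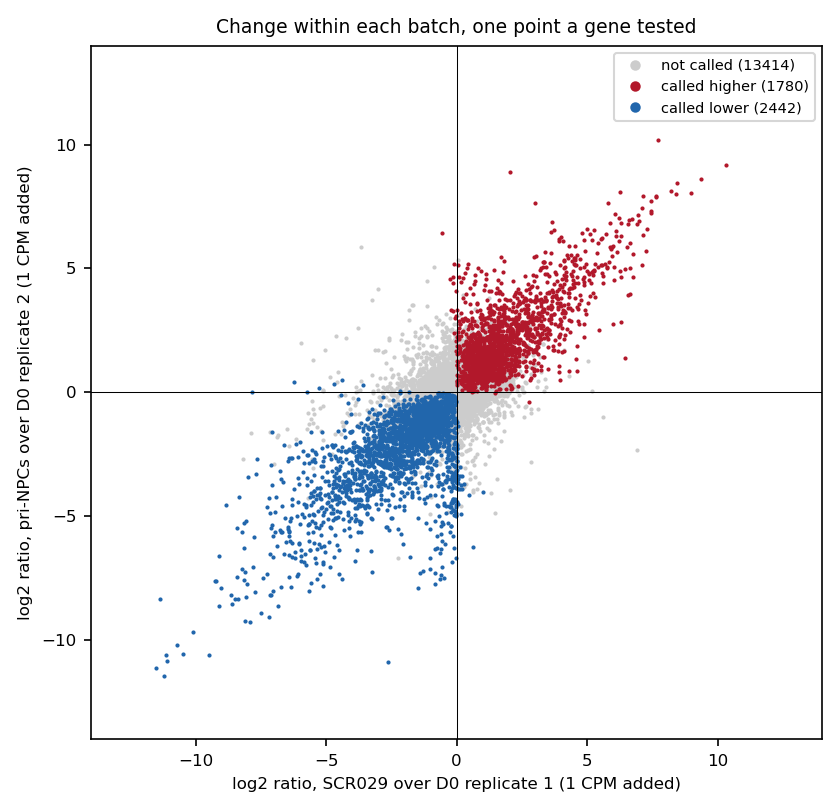
Log2 ratio of each control to the D0 library of its own batch, with 1 CPM added, for the 17636 genes tested; SCR029 is on the horizontal axis and the pri-NPCs on the vertical axis. Called genes (1780 higher, 2442 lower) fill the upper right and lower left quadrants, and a band of points near the axes changed in 1 batch mainly.

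The genes highest in the controls were genes of neural cells with almost no reads in the fibroblasts. Dab1, the adaptor through which Reelin guides migrating neurons, had 26.7 CPM in SCR029 and 84.3 CPM in the pri-NPCs, against 0 and 0 CPM at D0, and was at least 1670.0-fold higher in the controls (adjusted p = 5.5e-05). Otx2, a homeobox factor of the forebrain and midbrain (ENSMUSG00000021848, chromosome 14, 49277354 to 49287319 in mm9), had 42.0 CPM in SCR029 and 32.3 CPM in the pri-NPCs, against 0 and 0 CPM at D0, and was at least 1057-fold higher in the controls (adjusted p = 1.9e-05). Both genes were without a single count at D0. Cacng5, a regulator of AMPA receptors, and Mmd2 also had no count there. Cacng5 was at least 878-fold higher in the controls (adjusted p = 0.00029), and Mmd2 was at least 915-fold higher in the controls (adjusted p = 0.00029). Rfx4, a transcription factor of the developing neural tube, had 521 CPM in SCR029 and 283 CPM in the pri-NPCs, against 0.0417 and 0.0782 CPM at D0, with log2 change 12.67 (SE 1.98, adjusted p = 0.00049). Slc6a11, a GABA transporter of astrocytes, had 106 and 129 CPM in the controls, against 0.0208 and 0.0261 CPM at D0. Grm5, a metabotropic glutamate receptor, had 177 and 224 CPM in the controls, against 0.0208 and 0.0782 CPM at D0. The glial factors Olig1 and Olig2 and the olfactory receptor gene Olfr287 complete the 10 with the largest change. In all 10 both controls exceeded both D0 libraries, against 25.8% of all genes tested. The 10 were picked as called genes lying 2-fold apart within each batch, which favours this separation. A further view of the same contrast is that 42 genes had no count at D0 and at least 1 CPM in both controls.

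At the other end stood genes of mesenchyme and, through D0 replicate 2, of myeloid cells. Zcchc5 had 0 CPM in SCR029 and 0 CPM in the pri-NPCs, against 123 and 48.8 CPM at D0, and was at least 2313-fold lower in the controls (adjusted p = 0.00028). Tnmd, a membrane protein of tendon (ENSMUSG00000031250, chromosome X, 130385519 to 130400116 in mm9), had 0 CPM in SCR029 and 0 CPM in the pri-NPCs, against 86.1 and 42.8 CPM at D0, and was at least 1719-fold lower in the controls (adjusted p = 2e-05). Neither gene had a count in either control. Nov, a secreted matrix-associated CCN protein, had 0 CPM in SCR029 and 0.0954 CPM in the pri-NPCs, against 177 and 531 CPM at D0, with log2 change -12.67 (SE 0.93, adjusted p = 2.4e-06). Postn, the matrix protein periostin, had 0.341 CPM in SCR029 and 1.19 CPM in the pri-NPCs, against 3189.5 and 6151 CPM at D0, with log2 change -12.55 (SE 2.16, adjusted p = 0.00095). Tbx5, a forelimb and heart factor, had 0 CPM in SCR029 and 0 CPM in the pri-NPCs, against 18.7 and 21.4 CPM at D0. In each of these 5 genes both controls lay below both D0 libraries, against 30.2% of all genes tested, and they were picked by the same rule, which favours this. The choline transporter Slc5a7 was at least 616-fold lower in the controls (adjusted p = 1.2e-05), and Hoxc6 is described with the Hox genes. Lyz2, the lysozyme of macrophages, had 0.0568 CPM in SCR029 and 0.262 CPM in the pri-NPCs, against 5.58 and 2372 CPM at D0. Lilrb4, a receptor of myeloid cells, had 0 CPM in SCR029 and 0 CPM in the pri-NPCs, against 1.23 and 37.2 CPM at D0, so that D0 replicate 2 carried most of both differences. The mirror count was 67 genes with no count in the controls and at least 1 CPM in both D0 libraries.

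**Figure D2:**
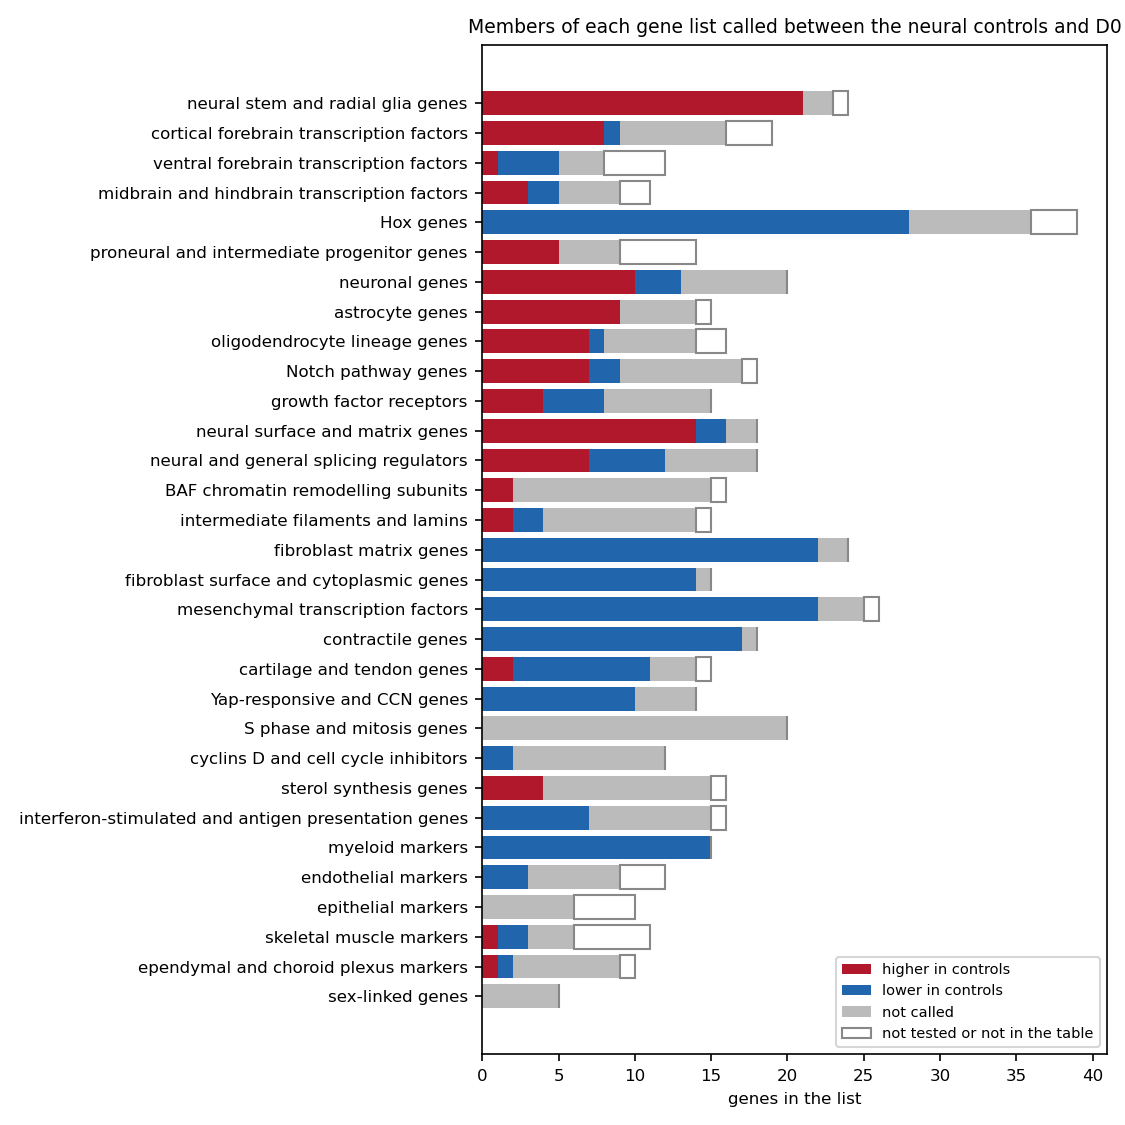
Number of genes per list called higher in the neural controls (red), called lower (blue), not called (grey) and not tested or not in the table (white), for the 31 lists. Neural stem and radial glia genes were called higher for 21 of 24 members, and fibroblast matrix genes lower for 22 of 24.

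Genes of neural stem cells and radial glia rose almost throughout. Of 23 members tested, 21 were higher and none was lower, against 10.1% and 13.8% of all genes tested, and in 22 both controls exceeded both D0 libraries, against 25.8% of all genes tested. Their median log2 change was 5.45, against -0.02 over all genes. Sox1, the 24th member, is not analysed here. Fabp7, the brain fatty acid binding protein of radial glia (ENSMUSG00000019874, chromosome 10, 57504687 to 57508256 in mm9), had 2576 CPM in SCR029 and 1748 CPM in the pri-NPCs, against 1.0 and 2.03 CPM at D0, with log2 change 10.48 (SE 1.77, adjusted p = 0.00083). Pax6, a homeobox factor of cortical radial glia, had 14.4 CPM in SCR029 and 21.0 CPM in the pri-NPCs, against 0.146 and 0.0521 CPM at D0, with log2 change 7.4 (SE 0.74, adjusted p = 2.2e-05). Both controls lay well above both D0 libraries in both genes. Lrrn1, a leucine-rich repeat membrane protein, had 142 CPM in SCR029 and 171 CPM in the pri-NPCs, against 0.833 and 0.495 CPM at D0, with log2 change 7.87 (SE 0.61, adjusted p = 3.4e-06). Sox2 and Nes, whose levels are given above, had log2 change 8.24 (SE 1.27, adjusted p = 0.00044) and log2 change 4.18 (SE 0.58, adjusted p = 0.00021). Slc1a3, the glutamate transporter of radial glia and astrocytes, had 385 CPM in SCR029 and 544 CPM in the pri-NPCs, against 21.0 and 19.8 CPM at D0, with log2 change 4.51 (SE 0.71, adjusted p = 0.00049). The members that did not pass were Egfr and Tnc, chosen here after their values were seen. Egfr, the receptor for the EGF of neural stem cell cultures, had 443 CPM in SCR029 and 483 CPM in the pri-NPCs, against 345 and 251 CPM at D0, with log2 change 0.63 (SE 0.49, adjusted p = 0.4). Tnc, a matrix protein made by radial glia and by fibroblasts, had 999 CPM in SCR029 and 421 CPM in the pri-NPCs, against 758 and 1325 CPM at D0, with log2 change -0.55 (SE 0.45, adjusted p = 0.43).

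**Figure D3:**
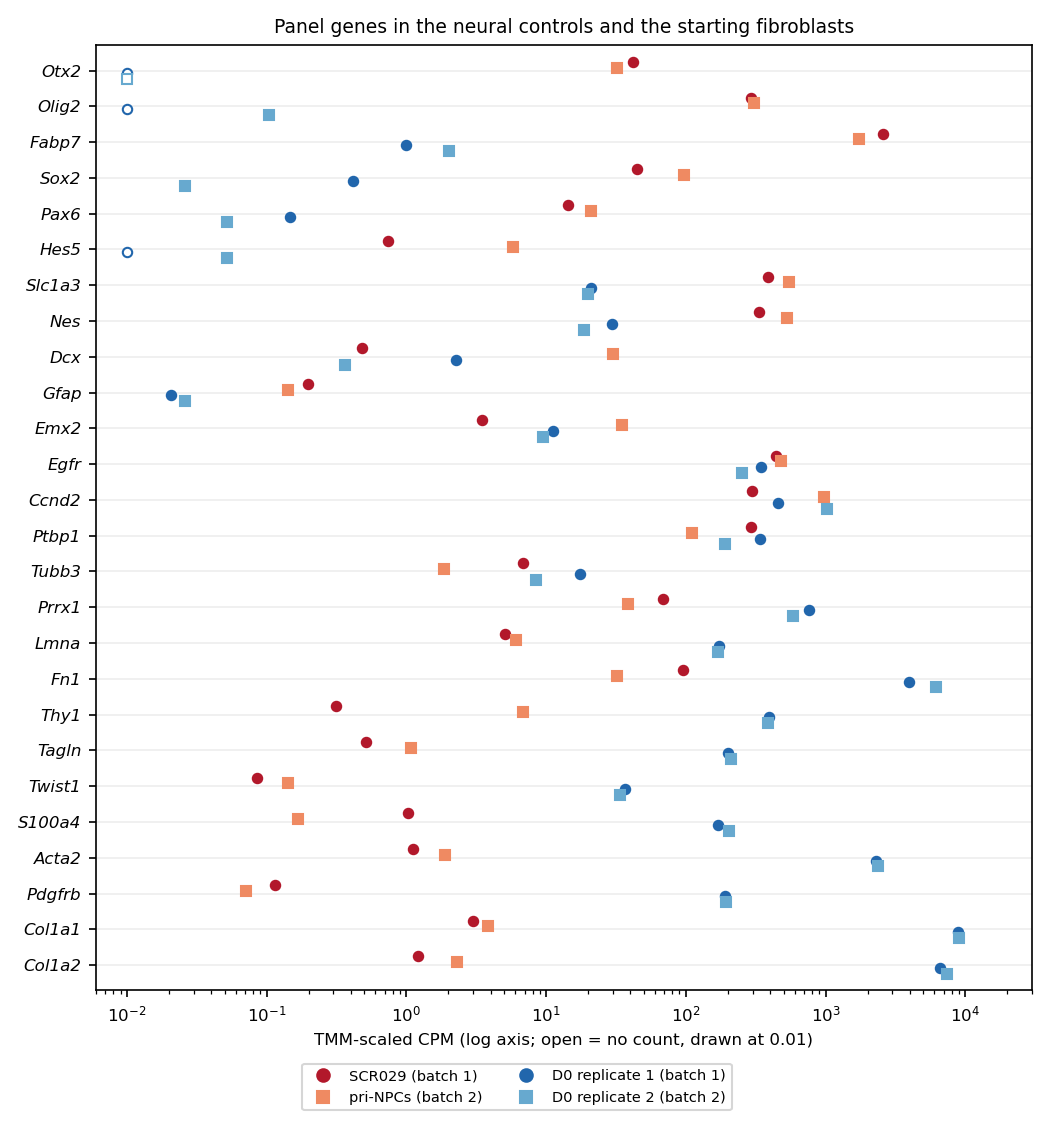
TMM-scaled CPM of panel genes in each library on a log axis, with SCR029 and the pri-NPCs (red, orange) above D0 replicates 1 and 2 (dark and light blue) in each row; open symbols mark no count and are drawn at 0.01. Genes are ordered by the fitted log2 change, from Otx2 at the top to Col1a2 at the bottom, and in the middle rows such as Egfr (443 and 483 CPM in the controls, against 345 and 251 CPM at D0) the groups lie close together.

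Among transcription factors that pattern the brain, those of the cortical forebrain list were higher for 8 of 16 tested and lower for 1. The shares over all genes were 10.1% and 13.8%. Otx1, a partner of Otx2 in the forebrain, had 18.5 CPM in SCR029 and 21.5 CPM in the pri-NPCs, against 0.958 and 0.73 CPM at D0, with log2 change 4.56 (SE 0.83, adjusted p = 0.0014). Nr2f2, a nuclear receptor of ventral and caudal forebrain that is also made by mesenchyme, was the 1 lower member, with 4.03 and 6.13 CPM in the controls, against 29.0 and 21.5 CPM at D0 and log2 change -2.31 (SE 0.47, adjusted p = 0.0029). The controls did not share every factor. Emx2, a dorsal and caudal cortical factor, had 3.47 CPM in SCR029 and 34.8 CPM in the pri-NPCs, against 11.2 and 9.43 CPM at D0, so that SCR029 lay below and the pri-NPCs above the fibroblasts. Its log2 change 0.89 (SE 0.68, adjusted p = 0.4) became -1.59 (SE 0.5, adjusted p = 0.041) without the pri-NPCs and 1.78 (adjusted p = 0.0098) without SCR029, so each control alone was called in its own direction. Without the pri-NPCs 2 members of the list were lower. Of the ventral forebrain factors, 1 of 8 tested was higher and 4 were lower, against 10.1% and 13.8% of all genes, or 0 to 1 and 2 to 3 with 1 library left out. The lower ones were factors with roles outside the brain, such as Dlx5, a factor of bone and limb as well as of forebrain, which had 0.0284 and 0.191 CPM in the controls, against 6.87 and 4.85 CPM at D0 and log2 change -5.66 (SE 0.88, adjusted p = 0.00045). The 1 higher member was Dlx1, a factor of ventral forebrain progenitors, with 3.75 CPM in SCR029 and 0.859 CPM in the pri-NPCs, against 0.146 and 0.521 CPM at D0 and log2 change 2.79 (SE 0.91, adjusted p = 0.038). Its call was lost without SCR029 (adjusted p = 0.35) and without either D0 replicate, with 0.0058 to 0.35 over the alternatives. Of the members not called or not tested, Dlx2 had 3.49 CPM in SCR029 and 0.501 CPM in the pri-NPCs, against 0.708 and 0.573 CPM at D0, Gsx1 had 0.883 CPM and Vax1 0.596 CPM in the pri-NPCs with no count in SCR029, and Nkx2-1, Lhx8 and Gsx2 stayed at or under 0.167 CPM in both controls. Of the midbrain and hindbrain factors 3 of 9 were higher and 2 lower, against 10.1% and 13.8% of all genes. En2, a factor of midbrain and cerebellum, had 5.06 CPM in SCR029 and 2.34 CPM in the pri-NPCs, against 0.0208 and 0.0261 CPM at D0, and was 155-fold higher in the controls (95% counting interval 42.4 to 1283, adjusted p = 0.0029). Gbx2, a factor of the anterior hindbrain that also marks parts of the forebrain, had 5.99 CPM in SCR029 and 2.5 CPM in the pri-NPCs, against 0.0625 and 0.156 CPM at D0, with log2 change 5.27 (SE 0.92, adjusted p = 0.001). En1, the relative of En2 active in midbrain and limb, had 0.256 and 0.835 CPM in the controls, against 5.64 and 10.4 CPM at D0 and log2 change -3.86 (SE 0.92, adjusted p = 0.0079), lost without SCR029 (adjusted p = 0.072, range over alternatives 4.6e-05 to 0.072).

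Hox genes, which mark position along the body axis, were lower in the controls. Of 36 tested, 28 were lower and none higher, against 13.8% and 10.1% of all genes. In 30 of the 36 both controls lay below both D0 libraries, against 30.2% of all genes tested. Hoxd13, the last gene of its cluster, active in distal limb and tail, had 0 CPM in SCR029 and 0.0716 CPM in the pri-NPCs, against 78.2 and 72.5 CPM at D0, and was 1946-fold lower in the controls (95% counting interval 666 to 9440.2, adjusted p = 1.3e-05). Hoxc6, a gene of the thorax and forelimb level, had 0 CPM in SCR029 and 0 CPM in the pri-NPCs, against 14.2 and 18.8 CPM at D0, and was at least 418-fold lower in the controls (adjusted p = 0.00079). Hoxb4, Hoxb5 and Hoxc5 had no count in either control, and were at least 116-fold, 57.1-fold and 125-fold lower than at D0, with adjusted p of 1.1e-05, 3.1e-06 and 6.3e-06. The D0 libraries thus carried reads from all 4 clusters and the pri-NPCs from almost none, with at most 0.0716 CPM of any Hox gene. SCR029 was the exception for 1 stretch. For Hoxa2 to Hoxa7 it had 2.53 to 14.6 CPM, the pri-NPCs had 0 to 0.0477 CPM and the D0 libraries 0.573 to 12.6 CPM. These 6 genes, singled out after their values were seen, were not called, with adjusted p of 0.2 to 0.94. Hoxa5 had 14.5 CPM in SCR029 and 0.0239 CPM in the pri-NPCs, against 7.94 and 4.82 CPM at D0. Hoxa9, on the other side of that stretch, had 0.0852 CPM in SCR029 and 0 CPM in the pri-NPCs, against 12.5 and 3.88 CPM at D0 and was 223-fold lower in the controls (95% counting interval 76.0 to 1083, adjusted p = 0.00095). From Hoxa9 on, and in the other 3 clusters, no Hox gene passed 0.54 CPM in SCR029. With the pri-NPCs as the only control 32 Hox genes were lower, and with SCR029 alone 25 were lower and 1 higher. Whether the counting kept the strand is not given in the sources used here, so Hox genes and their antisense transcripts cannot be told apart.

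**Figure D4:**
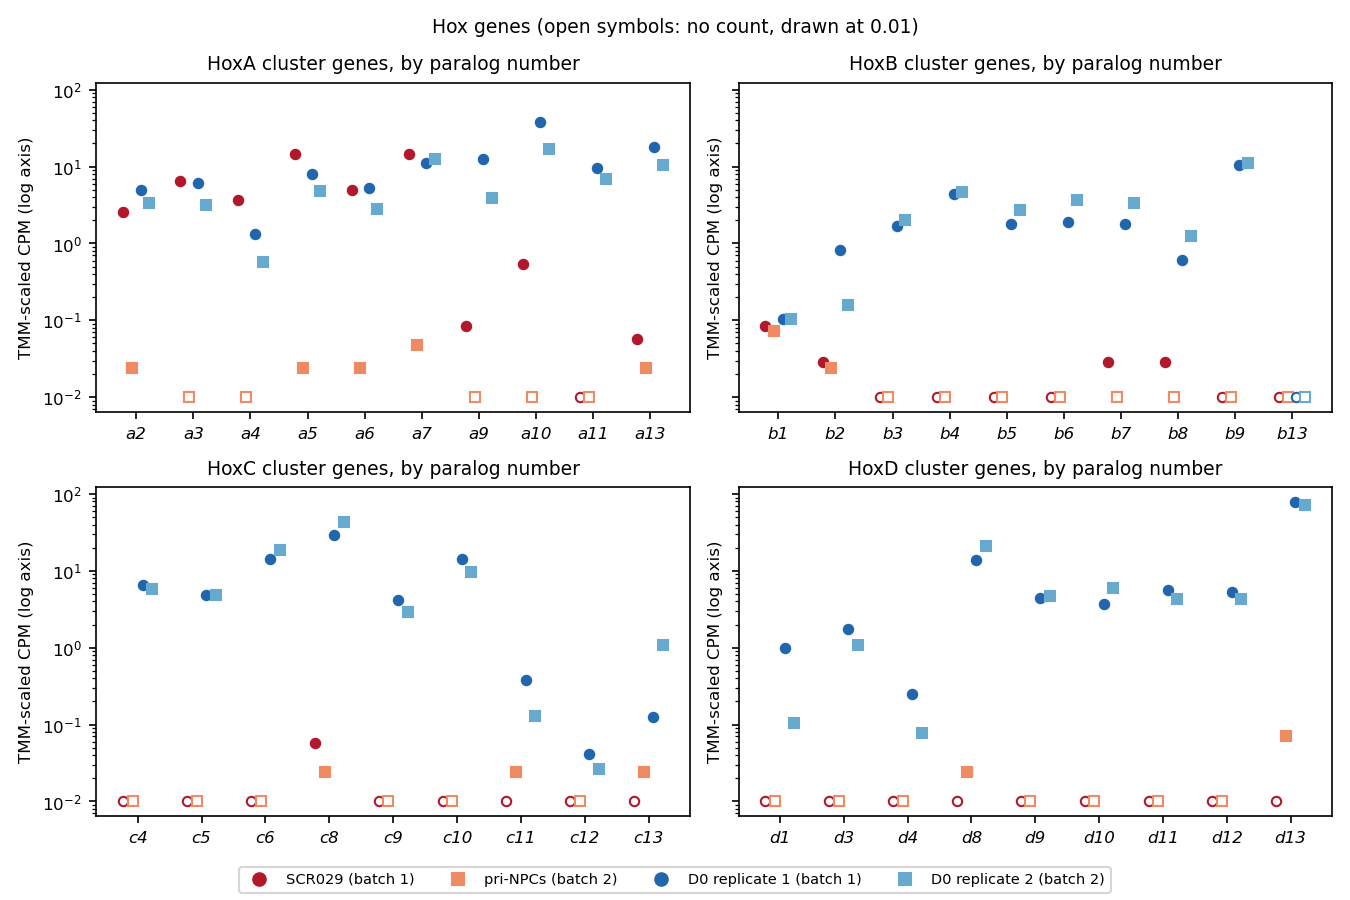
TMM-scaled CPM (log axis) of Hox genes of each cluster by paralog number in SCR029, the pri-NPCs and D0 replicates 1 and 2; open symbols mark no count and are drawn at 0.01. SCR029 lies far above the pri-NPCs for Hoxa2 to Hoxa7 (2.53 to 14.6 CPM), below both D0 libraries for Hoxa2, and drops for Hoxa9, and both controls lie at or near no count in the HoxB, HoxC and HoxD clusters.

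Proneural genes were represented by few members, and over all genes tested 10.1% were higher and 13.8% lower. Of 9 tested, 5 were higher and none lower, or 3 without either D0 replicate. These included Dll1, a Notch ligand of committed progenitors, with 7.84 CPM in SCR029 and 22.3 CPM in the pri-NPCs, against 0.0417 and 0.208 CPM at D0 and log2 change 6.93 (SE 1.0, adjusted p = 0.00027), and Hes6, which promotes neuronal differentiation, with 22.3 CPM in SCR029 and 15.2 CPM in the pri-NPCs, against 2.96 and 3.23 CPM at D0 and log2 change 2.6 (SE 0.38, adjusted p = 0.00028). Neurog1, Neurog2 and the Neurod genes, which drive excitatory neurons of the cortex, stayed at or under 0.334 CPM in every library. Of 20 neuronal genes 10 were higher and 3 lower, against 10.1% and 13.8% of all genes, so the lower share was near that of all genes. Ina, a neurofilament protein of early neurons, had 6.05 CPM in SCR029 and 6.3 CPM in the pri-NPCs, against 0.0625 and 0.0261 CPM at D0, with log2 change 6.98 (SE 1.06, adjusted p = 0.0004). The synaptic vesicle protein Syp had 6.56 CPM in SCR029 and 14.1 CPM in the pri-NPCs, against 0.146 and 0.625 CPM at D0, with log2 change 4.75 (SE 0.81, adjusted p = 0.0009). The synaptic protein Snap25 had 4.12 CPM in SCR029 and 8.4 CPM in the pri-NPCs, against 0.0833 and 0 CPM at D0, with log2 change 7.03 (SE 1.13, adjusted p = 0.0006). All 3 were low in the fibroblasts and modest in the controls. Elavl4, a neuronal RNA-binding protein, had 5.28 CPM in SCR029 and 31.7 CPM in the pri-NPCs, against 0.417 and 0.443 CPM at D0, with log2 change 5.42 (SE 1.02, adjusted p = 0.0018). Against the direction of the list, Stmn2, a microtubule regulator of growing axons, had 0 CPM in SCR029 and 0.215 CPM in the pri-NPCs, against 21.2 and 6.62 CPM at D0, with log2 change -6.91 (SE 1.31, adjusted p = 0.0019). The glutamate transporter Slc17a6 was at least 44.9-fold lower in the controls (adjusted p = 0.0038). Tubb3, the tubulin used as a marker of young neurons, had 6.82 CPM in SCR029 and 1.86 CPM in the pri-NPCs, against 17.6 and 8.42 CPM at D0, with log2 change -1.59 (SE 0.58, adjusted p = 0.062). Dcx, which marks migrating neurons, had 0.483 CPM in SCR029 and 30.0 CPM in the pri-NPCs, against 2.27 and 0.365 CPM at D0, with log2 change 3.52 (SE 1.43, adjusted p = 0.093), so the pri-NPCs alone exceeded the fibroblasts. In 17 of the 20 neuronal genes the pri-NPCs were at or above SCR029, counting Slc17a6 and Slc17a7, which had no count in either. The matching share over all genes was not computed. The sum over the list was the other way, 1309 CPM in SCR029 and 652 CPM in the pri-NPCs, carried by Mtap2, a microtubule protein of dendrites, with 1177 CPM in SCR029 and 405 CPM in the pri-NPCs, against 56.6 and 74.9 CPM at D0.

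Of 14 astrocyte genes tested 9 were called higher and none lower, against 10.1% and 13.8% of all genes. In 11 of them both controls lay above both D0 libraries and in 2 below both, against 25.8% and 30.2% of all genes tested. Acsbg1, a fatty acid activating enzyme, had 76.0 CPM in SCR029 and 53.1 CPM in the pri-NPCs, against 0.0833 and 0.0521 CPM at D0, with log2 change 9.8 (SE 1.15, adjusted p = 6.6e-05). Slc4a4, a bicarbonate transporter, had 194 CPM in SCR029 and 199 CPM in the pri-NPCs, against 14.6 and 10.6 CPM at D0, with log2 change 3.96 (SE 0.76, adjusted p = 0.0021). Aldoc, the brain form of aldolase, had 511 CPM in SCR029 and 83.6 CPM in the pri-NPCs, against 12.7 and 4.33 CPM at D0, with log2 change 5.12 (SE 0.9, adjusted p = 0.0011). The cystathionine synthase gene Cbs had 15.6 and 40.1 CPM in the controls, against 1.0 and 0.573 CPM at D0, with log2 change 5.13 (SE 0.86, adjusted p = 0.0008). Gfap, the filament of mature astrocytes, was near the limit of detection in all 4 libraries, with 0.199 CPM in SCR029 and 0.143 CPM in the pri-NPCs, against 0.0208 and 0.0261 CPM at D0, and was not called (adjusted p = 0.44). Olig2 (ENSMUSG00000039830, chromosome 16, 91225795 to 91228922 in mm9), a factor of progenitors and of the oligodendrocyte lineage, had 293 CPM in SCR029 and 305 CPM in the pri-NPCs, against 0 and 0.104 CPM at D0, with log2 change 12.53 (SE 1.88, adjusted p = 0.00036). Olig1, its neighbour and partner, had 706 CPM in SCR029 and 445 CPM in the pri-NPCs, against 0.0833 and 0.156 CPM at D0, with log2 change 12.22 (SE 1.94, adjusted p = 0.00054). Both were high in both controls and at most 0.156 CPM at D0. Bcas1, a protein of early myelinating cells, had 34.1 CPM in SCR029 and 26.9 CPM in the pri-NPCs, against 0.0417 and 0 CPM at D0, and was 1303-fold higher in the controls (95% counting interval 360.4 to 10767, adjusted p = 0.00082). Cnp, an enzyme of myelin, had 55.2 CPM in SCR029 and 92.7 CPM in the pri-NPCs, against 10.5 and 12.6 CPM at D0, with log2 change 2.68 (SE 0.41, adjusted p = 0.0004). In all 7 of 14 were higher and 1 lower, or 3 lower without the pri-NPCs. The shares over all genes were 10.1% higher and 13.8% lower. The lower member of the list was Pdgfra, the receptor of oligodendrocyte precursors and of fibroblasts. It had 3.52 CPM in SCR029 and 39.3 CPM in the pri-NPCs, against 287 and 162 CPM at D0, with log2 change -3.39 (SE 0.74, adjusted p = 0.0047). The late myelin genes Mog and Mag stayed at or under 0.119 CPM everywhere. Sox10, a factor of the committed lineage named after its values were seen, had 0 CPM in SCR029 and 16.7 CPM in the pri-NPCs, against 0.0208 and 0.0521 CPM at D0, with 261-fold higher in the controls (95% counting interval 88.9 to 1269, adjusted p = 0.017), and its reads among the controls came from the pri-NPCs alone. The call was lost without the pri-NPCs and without either D0 replicate, with adjusted p of 4.8e-05 to 0.4 over the alternatives.

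Of 17 Notch pathway genes 7 were higher and 2 lower, against 10.1% and 13.8% of all genes. The lower share was thus near that of all genes. On the ligand side Dll1 was higher, as given above, and Jag1 had 22.0 and 20.3 CPM in the controls, against 45.5 and 51.7 CPM at D0, with log2 change -1.2 (SE 0.34, adjusted p = 0.019). Of the receptors, Notch1 had 181 CPM in SCR029 and 132 CPM in the pri-NPCs, against 40.7 and 35.0 CPM at D0, with log2 change 2.05 (SE 0.34, adjusted p = 0.0008). Notch2 had 62.1 and 54.9 CPM in the controls, against 104 and 131 CPM at D0, with log2 change -1.01 (SE 0.31, adjusted p = 0.032). The lower calls of Jag1 and Notch2 were the less firm ones, with adjusted p up to 0.097 and 0.17 over the alternatives and lost without the pri-NPCs, SCR029 or D0 replicate 2, that of Notch2 also without D0 replicate 1. Of the targets, Nrarp, a feedback inhibitor, had 17.7 CPM in SCR029 and 17.3 CPM in the pri-NPCs, against 0.292 and 0.495 CPM at D0, with log2 change 5.47 (SE 0.56, adjusted p = 2.4e-05). Hes5, the classical target in neural stem cells, had 0.738 CPM in SCR029 and 5.8 CPM in the pri-NPCs, against 0 and 0.0521 CPM at D0, and was 151-fold higher in the controls (95% counting interval 41.3 to 1250.3, adjusted p = 0.013), not called without the pri-NPCs (adjusted p = 0.074) or D0 replicate 1 (adjusted p = 0.086), with 0.00014 to 0.086 over all alternatives. Higher Notch genes numbered 4 without the pri-NPCs and 4 without D0 replicate 1.

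Of 15 growth factor receptors 4 were higher and 4 lower, against 10.1% and 13.8% of all genes, and 7 were not called. Ntrk2, the receptor of BDNF, had 353 CPM in SCR029 and 683 CPM in the pri-NPCs, against 0.791 and 1.93 CPM at D0, with log2 change 8.58 (SE 1.02, adjusted p = 7.3e-05). Fgfr3, an FGF receptor of the ventricular zone and of astrocytes, had 32.9 CPM in SCR029 and 22.4 CPM in the pri-NPCs, against 1.79 and 1.98 CPM at D0, with log2 change 3.87 (SE 0.69, adjusted p = 0.0012). Pdgfrb, the PDGF receptor of mesenchyme and pericytes (ENSMUSG00000024620, chromosome 18, 61204804 to 61244715 in mm9), had 0.114 CPM in SCR029 and 0.0716 CPM in the pri-NPCs, against 190.5 and 194 CPM at D0, with log2 change -10.99 (SE 0.72, adjusted p = 1.7e-06). Met, the receptor of hepatocyte growth factor, had 1.22 CPM in SCR029 and 1.77 CPM in the pri-NPCs, against 23.7 and 14.9 CPM at D0, with log2 change -3.69 (SE 0.74, adjusted p = 0.0027). These 4 separated the groups with no overlap, which their choice as leading called genes favours. Erbb4, a neuregulin receptor, had 0.682 CPM in SCR029 and 31.6 CPM in the pri-NPCs, against 0.0417 and 0.235 CPM at D0, with log2 change 6.89 (SE 2.05, adjusted p = 0.025). Kit had 1.28 and 7.73 CPM in the controls, against 0.146 and 0 CPM at D0, with log2 change 5.81 (SE 1.93, adjusted p = 0.042). Both calls were lost without the pri-NPCs (adjusted p = 0.41 and 0.19, over the alternatives up to 0.41 and 0.22) and without either D0 replicate, which left 2 receptors higher in each case. Fgfr1, a receptor of FGF2, was not called, with 98.3 and 116 CPM in the controls, against 108 and 121 CPM at D0.

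Of 18 genes for surface and matrix proteins of neural tissue 14 were higher and 2 lower, against 10.1% and 13.8% of all genes. The lower share was near that of all genes. Ncan, a chondroitin sulfate proteoglycan of brain matrix (ENSMUSG00000002341, chromosome 8, 72616984 to 72644772 in mm9), had 264 CPM in SCR029 and 1901 CPM in the pri-NPCs, against 0.25 and 0.651 CPM at D0, with log2 change 11.24 (SE 1.32, adjusted p = 6.5e-05). Cspg5, a further brain proteoglycan, had 35.2 CPM in SCR029 and 61.3 CPM in the pri-NPCs, against 0.187 and 0.208 CPM at D0, with log2 change 7.91 (SE 0.53, adjusted p = 1.8e-06). Astn1, an adhesion protein of neurons migrating on glia, had 151 CPM in SCR029 and 233 CPM in the pri-NPCs, against 0.104 and 0.339 CPM at D0, with log2 change 9.78 (SE 1.21, adjusted p = 9.1e-05). These 3 genes were at most 0.651 CPM in either D0 library. The lower members, L1cam and Lgi4, adhesion proteins of axons and Schwann cells, had 0.0852 and 0.239 CPM in the controls, against 1.17 and 7.19 CPM at D0 and 0 and 0.0239 CPM in the controls, against 0.375 and 0.443 CPM at D0, and neither was called without D0 replicate 2 (adjusted p = 0.062 and 0.057, over the alternatives up to 0.084 and 0.13), Lgi4 also not without SCR029 (adjusted p = 0.12). The adhesion proteins Ncam1 and Cdh2 were shared by both cell kinds, with 266 and 449 CPM in the controls, against 275 and 239.9 CPM at D0 for Ncam1 and 171 and 159.7 CPM in the controls, against 125 and 123 CPM at D0 for Cdh2, and were not called (adjusted p = 0.73 and 0.31).

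Regulators of RNA splicing changed in both directions, 7 of 18 higher and 5 lower, or 3 lower without either D0 replicate. The shares over all genes were 10.1% higher and 13.8% lower. Nova2, the neuronal splicing factor, had 42.4 CPM in SCR029 and 44.4 CPM in the pri-NPCs, against 0.125 and 0.495 CPM at D0, with log2 change 7.15 (SE 0.67, adjusted p = 1.5e-05). Nova1 had 50.6 CPM in SCR029 and 63.7 CPM in the pri-NPCs, against 5.73 and 8.68 CPM at D0, with log2 change 2.99 (SE 0.62, adjusted p = 0.0034). The Musashi proteins, RNA-binding proteins of neural stem cells, were higher as well, with log2 change 2.07 (SE 0.37, adjusted p = 0.0012) for Msi1 and log2 change 2.4 (SE 0.32, adjusted p = 0.00015) for Msi2. Rbfox1, made by neurons and muscle, had 0.256 and 0.31 CPM in the controls, against 3.39 and 3.78 CPM at D0, with log2 change -3.65 (SE 0.56, adjusted p = 0.00039). Mbnl2 had 73.1 and 97.0 CPM in the controls, against 265 and 173 CPM at D0, with log2 change -1.36 (SE 0.27, adjusted p = 0.0023). Ptbp1, the splicing repressor of non-neuronal cells, had 293 CPM in SCR029 and 111 CPM in the pri-NPCs, against 338 and 189 CPM at D0, with log2 change -0.38 (SE 0.5, adjusted p = 0.65). Of the BAF chromatin remodelling subunits 2 of 15 were higher, a share near the 10.1% of all genes. Dpf3 had 40.7 CPM in SCR029 and 28.7 CPM in the pri-NPCs, against 0.0833 and 0 CPM at D0, with log2 change 9.49 (SE 1.15, adjusted p = 8e-05). Smarcd1 had 37.8 CPM in SCR029 and 45.3 CPM in the pri-NPCs, against 11.4 and 11.0 CPM at D0, with log2 change 1.89 (SE 0.39, adjusted p = 0.0032). The remaining 13 tested, among them the ATPase gene Smarca4 with 139 and 188 CPM in the controls, against 131 and 163 CPM at D0, were not called. Among filaments and lamins 2 of 14 were higher, Nes and Ina, and 2 lower, Des and Lmna, or 1 lower without D0 replicate 1 or SCR029, shares near the 10.1% and 13.8% of all genes. Lmna, which stiffens the nucleus of mechanically loaded tissues (ENSMUSG00000028063, chromosome 3, 88285070 to 88313878 in mm9), had 5.11 CPM in SCR029 and 6.08 CPM in the pri-NPCs, against 173 and 169 CPM at D0, with log2 change -4.93 (SE 0.36, adjusted p = 2.4e-06), while the B-type lamin Lmnb1 had 57.0 and 57.6 CPM in the controls, against 24.4 and 26.6 CPM at D0 and was not called (adjusted p = 0.26), nor was Lmnb2 (adjusted p = 0.84). Vim, the filament of radial glia and of fibroblasts alike, had 1844 CPM in SCR029 and 2486 CPM in the pri-NPCs, against 2336 and 1765 CPM at D0, with log2 change 0.08 (SE 0.41, adjusted p = 0.92).

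The extracellular matrix of the fibroblasts was nearly missing from the controls. Of 24 fibroblast matrix genes 22 were lower and none higher, against 13.8% and 10.1% of all genes. Their median log2 change was -8.02 against -0.02 over all genes. Col1a1 (ENSMUSG00000001506, chromosome 11, 94797538 to 94814356 in mm9), whose levels are given above, had log2 change -11.34 (SE 1.27, adjusted p = 4.7e-05). Col1a2, its partner chain, had 1.22 CPM in SCR029 and 2.31 CPM in the pri-NPCs, against 6589 and 7404 CPM at D0, with log2 change -11.94 (SE 1.35, adjusted p = 5e-05). Col6a3 had 0.312 CPM in SCR029 and 0.191 CPM in the pri-NPCs, against 713 and 469 CPM at D0, with log2 change -11.19 (SE 0.82, adjusted p = 2.4e-06). The crosslinking enzyme Lox had 0.426 CPM in SCR029 and 1.38 CPM in the pri-NPCs, against 2394 and 2810.0 CPM at D0, with log2 change -11.47 (SE 1.24, adjusted p = 3.4e-05). The keratan sulfate proteoglycan Lum had 0.142 CPM in SCR029 and 0.286 CPM in the pri-NPCs, against 305 and 399 CPM at D0, with log2 change -10.64 (SE 0.83, adjusted p = 3.4e-06). These 5 genes had at least 305 CPM in either D0 library and at most 3.82 CPM in either control. Fn1, fibronectin, had 94.9 CPM in SCR029 and 32.1 CPM in the pri-NPCs, against 3944 and 6174 CPM at D0, with log2 change -6.32 (SE 0.79, adjusted p = 9.8e-05). Fbln5, an elastic fibre protein, had 0.312 CPM in SCR029 and 0.572 CPM in the pri-NPCs, against 173 and 412 CPM at D0, with log2 change -9.35 (SE 0.71, adjusted p = 3.1e-06). The members not called were Fbln1 and Fbln2, and Fbln2, a fibulin of matrix, had 72.8 CPM in SCR029 and 871 CPM in the pri-NPCs, against 609 and 1143 CPM at D0. Summed over the list, the matrix genes gave 671 CPM in SCR029 and 2331 CPM in the pri-NPCs, against 45097 and 60374 CPM at D0. In bulk RNA, fewer cells of a type and less RNA per cell cannot be told apart, so the residual levels in the controls have no assigned source.

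Surface and cytoplasmic markers of fibroblasts were lower for 14 of 15, against 13.8% of all genes. S100a4 had log2 change -8.32 (SE 0.98, adjusted p = 6.9e-05). Itga11, a collagen receptor, had 0.114 CPM in SCR029 and 0.262 CPM in the pri-NPCs, against 157 and 363 CPM at D0, with log2 change -10.38 (SE 0.81, adjusted p = 3.4e-06). Fap, a membrane protease of activated fibroblasts, had 0.0284 CPM in SCR029 and 0.0716 CPM in the pri-NPCs, against 17.8 and 13.2 CPM at D0, with log2 change -8.15 (SE 0.82, adjusted p = 2.2e-05). Cd34 had 0.114 CPM in SCR029 and 0.191 CPM in the pri-NPCs, against 12.1 and 8.0 CPM at D0, with log2 change -6.0 (SE 0.54, adjusted p = 1.1e-05). Thy1, a surface protein of fibroblasts and of mature neurons, had 0.312 CPM in SCR029 and 6.82 CPM in the pri-NPCs, against 395 and 387 CPM at D0, with log2 change -6.77 (SE 1.88, adjusted p = 0.018), lost without SCR029 (adjusted p = 0.095, range over alternatives 6.3e-06 to 0.095). All 15 members, Nt5e included, which was not called, were lower in both controls than in both D0 libraries, against 30.2% of all genes tested. Mesenchymal transcription factors were lower for 22 of 25 tested, against 13.8% of all genes. Snai2 (ENSMUSG00000022676, chromosome 16, 14705945 to 14709488 in mm9), which represses epithelial genes, had 0.0568 CPM in SCR029 and 0.119 CPM in the pri-NPCs, against 102 and 103 CPM at D0, with log2 change -10.1 (SE 0.5, adjusted p = 2.2e-07). Twist1 had 0.0852 CPM in SCR029 and 0.143 CPM in the pri-NPCs, against 36.5 and 34.0 CPM at D0, with log2 change -8.21 (SE 0.92, adjusted p = 4.6e-05). Twist2 was at least 279-fold lower in the controls (adjusted p = 1.9e-06). Osr1, a factor of limb connective tissue, had 0.0568 CPM in SCR029 and 0.0239 CPM in the pri-NPCs, against 51.8 and 39.5 CPM at D0, and was 1191-fold lower in the controls (95% counting interval 407 to 5778, adjusted p = 1.9e-06). Prrx1, a factor of limb and skull mesenchyme, kept a level in the controls, with 68.3 CPM in SCR029 and 38.5 CPM in the pri-NPCs, against 756 and 579.8 CPM at D0 and log2 change -3.64 (SE 0.59, adjusted p = 0.00064). The factors not called were Zeb2, with 168 and 179 CPM in the controls, against 177 and 282 CPM at D0, Foxc1 and Tcf21.

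Contractile genes were lower for 17 of 18 and Yap-responsive and CCN genes for 10 of 14, with none higher in either list. The shares over all genes were 13.8% lower and 10.1% higher. Yap and Taz, encoded by Yap1 and Wwtr1, are coactivators that enter the nucleus in spread cells on stiff ground and bind DNA through Tead factors, and Srf with its cofactors drives actin genes through the CArG box. The promoters of 4 genes of these lists are shown as examples that hold a Tead motif or a CArG box. Whether the motifs bear on the change was not tested. Sequences are from RefSeq on GRCm38.p6, a different build from the mm9 of the expression table, and run from 250 bases before to 50 bases after the gene start, 5′ to 3′ on the gene's strand. Capitals mark the Tead motif GGAATG on either strand (CATTCC on the other) and, in Myl9 and Vcl, the CArG box.
Ankrd1 (chr19:36119795-36120094, minus strand): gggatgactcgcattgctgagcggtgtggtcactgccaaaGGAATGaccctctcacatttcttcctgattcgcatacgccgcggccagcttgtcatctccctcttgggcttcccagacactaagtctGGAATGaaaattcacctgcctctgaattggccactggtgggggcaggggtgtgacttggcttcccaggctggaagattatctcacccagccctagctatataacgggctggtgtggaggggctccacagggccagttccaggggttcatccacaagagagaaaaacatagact
Cyr61 (chr3:145649936-145650235, minus strand): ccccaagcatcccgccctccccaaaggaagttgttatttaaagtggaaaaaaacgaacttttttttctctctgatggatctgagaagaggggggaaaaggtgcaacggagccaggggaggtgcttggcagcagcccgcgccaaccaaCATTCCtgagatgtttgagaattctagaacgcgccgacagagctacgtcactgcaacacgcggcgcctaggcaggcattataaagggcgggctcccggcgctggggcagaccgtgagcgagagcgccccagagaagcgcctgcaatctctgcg
Myl9 (chr2:156775214-156775513, plus strand): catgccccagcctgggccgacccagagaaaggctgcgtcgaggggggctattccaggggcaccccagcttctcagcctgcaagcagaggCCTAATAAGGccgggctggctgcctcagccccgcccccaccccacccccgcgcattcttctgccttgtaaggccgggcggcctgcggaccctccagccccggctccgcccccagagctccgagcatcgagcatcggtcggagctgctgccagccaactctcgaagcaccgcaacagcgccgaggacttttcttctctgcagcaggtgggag
Vcl (chr14:20929148-20929447, plus strand): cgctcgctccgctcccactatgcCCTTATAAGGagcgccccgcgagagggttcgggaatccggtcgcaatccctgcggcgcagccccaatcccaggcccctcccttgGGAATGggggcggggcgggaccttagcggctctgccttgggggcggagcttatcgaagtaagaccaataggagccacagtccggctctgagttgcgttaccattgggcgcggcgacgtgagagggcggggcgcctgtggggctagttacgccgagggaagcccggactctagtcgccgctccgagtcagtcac
Of the 32851 promoters in the RefSeq table, 14.7% held GGAATG and 1.63% a CArG box, searched on both strands, and the motifs shared a base in 6 promoters. Of the 14 Yap-responsive and CCN genes 9 had promoters in that table, and of their 11 promoters 9 held GGAATG (81.8%) and none a CArG box. The list was named for response to Yap, which binds through Tead factors, so its GGAATG share is no independent result. The genes with GGAATG include Yap1 and Wwtr1, which were not called. Of the 18 contractile genes 14 had promoters there, and of their 15 promoters 7 held GGAATG (46.7%) and 4 a CArG box (26.7%). The CArG boxes were those of Cnn2, Myl9, Srf and Vcl. The shares among 25 neural stem promoters were 4% for each motif, and among 18 fibroblast matrix promoters 11.1% for GGAATG and 0% for the CArG box. The motifs were picked after the values were seen, and a match of letters is a description and not a site.

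Ankrd1, a nuclear and sarcomere protein that is among the standard Yap targets, had 0 CPM in SCR029 and 0 CPM in the pri-NPCs, against 6.52 and 6.46 CPM at D0, and was at least 167-fold lower in the controls (adjusted p = 0.00032). Cyr61, a CCN matrix protein also called Ccn1, had 4.35 CPM in SCR029 and 10.1 CPM in the pri-NPCs, against 422 and 219.7 CPM at D0, with log2 change -5.47 (SE 0.75, adjusted p = 0.00018). Its relative Ctgf had 0.17 CPM in SCR029 and 1.12 CPM in the pri-NPCs, against 75.5 and 144 CPM at D0, with log2 change -7.38 (SE 1.17, adjusted p = 0.00052). Axl, a receptor tyrosine kinase, had 22.3 CPM in SCR029 and 20.7 CPM in the pri-NPCs, against 253 and 151 CPM at D0, with log2 change -3.23 (SE 0.34, adjusted p = 3.1e-05). In these 4, all called genes, the lowest D0 value exceeded the highest control value, which choosing called genes favours. Wisp1 and Wisp2, CCN proteins of bone and connective tissue, had 0.0852 CPM in SCR029 and 0.739 CPM in the pri-NPCs, against 284 and 375 CPM at D0 for Wisp1 and 0.0284 CPM in SCR029 and 0.0477 CPM in the pri-NPCs, against 20.4 and 193 CPM at D0 for Wisp2. The coactivators themselves were not called, Yap1 with 55.9 and 65.4 CPM in the controls, against 90.0 and 90.0 CPM at D0 (adjusted p = 0.087) and Wwtr1 with 109.7 and 135 CPM in the controls, against 133 and 147 CPM at D0 (adjusted p = 0.62), nor were Tead1 and Tead2 (adjusted p = 0.11 and 0.16). Among the contractile genes, Acta2, the smooth muscle actin of stress fibres (ENSMUSG00000035783, chromosome 19, 34315580 to 34329826 in mm9), had 1.11 CPM in SCR029 and 1.88 CPM in the pri-NPCs, against 2306 and 2358 CPM at D0, with log2 change -10.6 (SE 0.81, adjusted p = 3.1e-06). The actin-binding proteins Tagln and Cnn1 had 0.511 CPM in SCR029 and 1.07 CPM in the pri-NPCs, against 199 and 209.8 CPM at D0, and 0.341 CPM in SCR029 and 0.429 CPM in the pri-NPCs, against 66.8 and 90.0 CPM at D0. Myl9, a myosin light chain, had 5.45 CPM in SCR029 and 2.19 CPM in the pri-NPCs, against 213 and 275 CPM at D0, with log2 change -6.0 (SE 0.73, adjusted p = 8.4e-05). Vcl, vinculin of focal adhesions, had 62.4 CPM in SCR029 and 32.3 CPM in the pri-NPCs, against 284 and 259.6 CPM at D0, with log2 change -2.52 (SE 0.44, adjusted p = 0.0011). Srf was the 1 contractile list member not called, with 16.1 and 13.6 CPM in the controls, against 24.1 and 27.3 CPM at D0 and log2 change -0.79 (SE 0.31, adjusted p = 0.08).

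Genes of cartilage and tendon were lower for 9 of 14 tested and higher for 2, with 5 lower without D0 replicate 2. Beside Tnmd, Fmod, a collagen-binding proteoglycan, had 0 CPM in SCR029 and 0.0716 CPM in the pri-NPCs, against 105 and 249.6 CPM at D0, and was 4349.7-fold lower in the controls (95% counting interval 1488 to 21095, adjusted p = 2.9e-05). Comp, a cartilage matrix protein, had 0 CPM in SCR029 and 0.0954 CPM in the pri-NPCs, against 6.1 and 10.3 CPM at D0, with log2 change -7.26 (SE 1.12, adjusted p = 0.00044). Of all genes 13.8% were lower and 10.1% higher, so the higher share of the list was near that of all genes. The higher members were Sox5 and Sox6, which act in cartilage and also in neural progenitors and oligodendrocyte precursors. Sox5 had 66.9 CPM in SCR029 and 90.5 CPM in the pri-NPCs, against 7.71 and 11.3 CPM at D0, with log2 change 3.05 (SE 0.43, adjusted p = 0.00022). Sox6 had 131 CPM in SCR029 and 156 CPM in the pri-NPCs, against 5.17 and 7.58 CPM at D0, with log2 change 4.49 (SE 0.8, adjusted p = 0.0012).

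No gene of the cell division list passed the test, which does not show that the groups divide alike. None of 20 genes of S phase and mitosis was called by edgeR, by DESeq2 or by limma voom, and 0 had an unadjusted p under 0.05. Mki67, the proliferation marker, had 518 CPM in SCR029 and 550.0 CPM in the pri-NPCs, against 471 and 506 CPM at D0. Top2a had 601 CPM in SCR029 and 481 CPM in the pri-NPCs, against 251 and 303 CPM at D0. In 10 of the 20 both controls exceeded both D0 libraries and in 1 both lay below, against 25.8% and 30.2% of all genes tested. The list summed to 2612 CPM in SCR029 and 1888 CPM in the pri-NPCs, against 1489 and 1596 CPM at D0. In 17 of the 20 SCR029 exceeded the pri-NPCs, and the share over all genes was not computed. Among D cyclins and inhibitors 2 of 12 were lower, a share near the 13.8% of all genes: Cdkn2b with 8.86 and 11.0 CPM in the controls, against 28.7 and 22.7 CPM at D0 and Ccnd3 with 15.5 and 12.1 CPM in the controls, against 54.9 and 43.0 CPM at D0, and neither was called without SCR029 (adjusted p = 0.073 and 0.053, over the alternatives up to 0.11 and 0.09). Ccnd2, the D cyclin of cortical progenitors, had 295 CPM in SCR029 and 969.6 CPM in the pri-NPCs, against 456 and 1022 CPM at D0, with log2 change -0.22 (SE 0.5, adjusted p = 0.8), and both batch 2 values exceeded both batch 1 values. In 14 of 15 sterol synthesis genes tested both controls exceeded both D0 libraries and in 1 both lay below. The shares over all genes tested were 25.8% and 30.2%. Of the 15, 4 were called higher, or 10 with a batch term, against 10.1% of all genes. Insig1, which holds the pathway in check, had 305 CPM in SCR029 and 532 CPM in the pri-NPCs, against 62.0 and 64.4 CPM at D0, with log2 change 2.73 (SE 0.69, adjusted p = 0.011). The count was 10 with the replicate number as a block, 1 without D0 replicate 1 and 0 without D0 replicate 2, when Insig1 had an adjusted p of 0.075, the largest over its alternatives (from 0.00028).

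Markers of other cells were examined for what the samples could hold, with 10.1% of all genes tested called higher and 13.8% lower. All 15 myeloid markers were called lower, with C1qc, a complement protein of macrophages, at 0 CPM in SCR029 and 0 CPM in the pri-NPCs, against 1.0 and 141 CPM at D0 and Ctss at 0 CPM in SCR029 and 0 CPM in the pri-NPCs, against 0.479 and 133 CPM at D0. Without D0 replicate 2 there were 5 lower, and with limma voom or in the fit of 4 libraries 0, when these 2 genes were not called (adjusted p of 0.12 to 0.17, over all alternatives 4.7e-12 to 0.17). Interferon-stimulated and antigen presentation genes were lower for 7 of 15, and the count was 3 without D0 replicate 2, 4 without the pri-NPCs and 1 without SCR029. B2m, the light chain of class I molecules, had 155 CPM in SCR029 and 187 CPM in the pri-NPCs, against 711 and 1039 CPM at D0, with log2 change -2.35 (SE 0.33, adjusted p = 0.00022), and was called in each alternative run. In 14 of the 16 listed genes D0 replicate 2 exceeded replicate 1, as did the myeloid markers, whose part in this result was not tested. The matching share over all genes was not computed. Of the endothelial markers 3 of 9 tested were lower, against 13.8% of all genes, but the defining genes Pecam1, Cdh5, Tie1 and Cldn5 stayed at or under 0.312 CPM in every library. The lower ones were Erg, an Ets factor of endothelium and cartilage, with 0.284 and 0.477 CPM in the controls, against 36.4 and 34.3 CPM at D0 and log2 change -6.52 (SE 1.35, adjusted p = 0.0033), and the VEGF receptor genes Flt1, with 5.68 and 1.46 CPM in the controls, against 53.3 and 62.7 CPM at D0, and Kdr, with 0.256 and 0.453 CPM in the controls, against 1.27 and 1.9 CPM at D0. Counts of lower endothelial markers were 1 to 2 with 1 library left out. None of 6 epithelial markers tested was called by edgeR, 1 had an unadjusted p under 0.05, and limma voom and DESeq2 each called 1. Of 9 ependymal and choroid plexus markers tested 1 was higher and 1 lower, shares near those of all genes. Foxj1, the factor of ciliated cells, was higher, with 12.4 CPM in SCR029 and 2.62 CPM in the pri-NPCs, against 0 and 0.104 CPM at D0. Its log2 change was 7.2 (SE 1.11, adjusted p = 0.00044). The call was lost in the fit of 4 libraries (adjusted p = 0.058), also with batch as replicate block (adjusted p = 0.14). The water channel Aqp1 was lower, with 0 and 0.167 CPM in the controls, against 16.8 and 35.4 CPM at D0 and log2 change -8.15 (SE 1.44, adjusted p = 0.0011). Of 6 skeletal muscle markers tested 1 was higher and 2 were lower, against 10.1% and 13.8% of all genes. Actc1, the cardiac actin, had 2.36 CPM in SCR029 and 34.9 CPM in the pri-NPCs, against 1.46 and 0 CPM at D0, with log2 change 4.65 (SE 1.6, adjusted p = 0.049), which was lost with the replicate number as a block (adjusted p = 0.071), without D0 replicate 2 (adjusted p = 0.16) and without the pri-NPCs (adjusted p = 0.52, range over alternatives 0.0072 to 0.52). Acta1, the skeletal actin, had 0 CPM in SCR029 and 0 CPM in the pri-NPCs, against 4.44 and 1.2 CPM at D0 and was at least 77.1-fold lower in the controls (adjusted p = 0.0053). Des, desmin, had 0.0852 CPM in SCR029 and 0.859 CPM in the pri-NPCs, against 18.5 and 1.51 CPM at D0, with log2 change -4.37 (SE 1.22, adjusted p = 0.018), lost without D0 replicate 1 (adjusted p = 0.35) and without SCR029 (adjusted p = 0.11, range over alternatives 0.00037 to 0.42). Myod1, Myf5 and Myog, the factors that set skeletal muscle fate, were not tested and had at most 0.17 CPM in any library.

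SCR029 and the pri-NPCs were also set against each other. With 1 CPM added, 191 genes (1.08%) were past 8-fold between the controls, 28 higher in SCR029 (0.159%) and 163 higher in the pri-NPCs (0.924%). The number depends on the setting, with 637 genes when 0.1 CPM is added and 584 at a threshold of 2 on the log2 scale. Between D0 replicates 1 and 2 it was 170 (0.964%). There is 1 library of each control, in different batches, so this is a description without a test, and line, age, strain, sex and batch cannot be told apart. Among genes with at least 20 CPM in the higher control, those highest in SCR029 over the pri-NPCs were Gabra4, a GABA receptor subunit, with 67.5 CPM in SCR029 and 0.358 CPM in the pri-NPCs, against 0.396 and 1.69 CPM at D0, and Gpr37l1, a receptor of astrocytes, with 89.2 CPM in SCR029 and 1.57 CPM in the pri-NPCs, against 0.0417 and 0 CPM at D0. Gpr37l1 was almost absent from the fibroblasts while Gabra4 was low there. Slc7a11, the cystine transporter, had 127 CPM in SCR029 and 5.84 CPM in the pri-NPCs, against 62.2 and 14.8 CPM at D0. The growth factor Fgf23 had 23.6 CPM in SCR029 and 0.835 CPM in the pri-NPCs, against 0 and 0 CPM at D0. Anxa1 and the sulfatase Sulf1, high at D0, had 36.3 CPM in SCR029 and 1.38 CPM in the pri-NPCs, against 352 and 362 CPM at D0, and 38.2 CPM in SCR029 and 2.03 CPM in the pri-NPCs, against 184 and 312 CPM at D0. Sdpr and the histone gene Hist1h3g, which has near-identical copies that reads may be split between, complete the 8. Hoxa5 and Hoxa7, under that minimum, had log2 ratios of 3.92 and 3.89, larger than the last 4 of these.

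The 8 genes with the largest ratio in favour of the pri-NPCs, with the same minimum, were of several kinds. Nnat, an imprinted gene of brain, had 0.398 CPM in SCR029 and 259.6 CPM in the pri-NPCs, against 16.9 and 3.44 CPM at D0. Grb10, an imprinted adaptor of growth factor receptors, had 0.596 CPM in SCR029 and 168 CPM in the pri-NPCs, against 20.0 and 1019 CPM at D0. Both were under 1 CPM in SCR029 alone. Sparcl1, a matrix protein of glia and vessels, had 17.9 CPM in SCR029 and 1531 CPM in the pri-NPCs, against 3.58 and 2.24 CPM at D0. Gria4, an AMPA receptor subunit, had 0.0284 CPM in SCR029 and 100.1 CPM in the pri-NPCs, against 0.5 and 0.182 CPM at D0. Pde1c, a cyclic nucleotide phosphodiesterase, had 0.625 CPM in SCR029 and 101 CPM in the pri-NPCs, against 0.562 and 1.88 CPM at D0. Ndrg2, a gene of astrocytes, had 1.16 CPM in SCR029 and 114 CPM in the pri-NPCs, against 19.6 and 7.63 CPM at D0. The mitochondrial carrier Ucp2 had 0.852 CPM in SCR029 and 98.1 CPM in the pri-NPCs, against 83.3 and 233 CPM at D0, and the X-linked gene Prrg3 had 0.0568 CPM in SCR029 and 134 CPM in the pri-NPCs. In these 8 genes SCR029 was between 0.0284 and 17.9 CPM. Of the list genes tested, 23 were past 8-fold higher in the pri-NPCs and 4 in SCR029. The 4 were Anxa1, Hoxa5, Hoxa7 and Xist, and the 23 included Dcx, Rbfox3 and Syt1 of neurons, Sox10, Mbp and Pdgfra of the oligodendrocyte lineage, Aldh1l1, Apoe and Sparcl1 of astrocytes, and Prom1, a surface protein of neural stem cells. Prom1 had 0.227 CPM in SCR029 and 26.0 CPM in the pri-NPCs, against 0.146 and 0.0782 CPM at D0, and its call against D0, log2 change 6.81 (SE 1.42, adjusted p = 0.0035), had an adjusted p of 0.34 without the pri-NPCs. With SCR029 as the only control 3555 genes were called against D0 (18.9%), and with the pri-NPCs as the only control 3229 (17.2%). The 2165 genes shared are 60.9% of the SCR029 list and 67% of the pri-NPC list, and the lists share their D0 libraries.

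**Figure D5:**
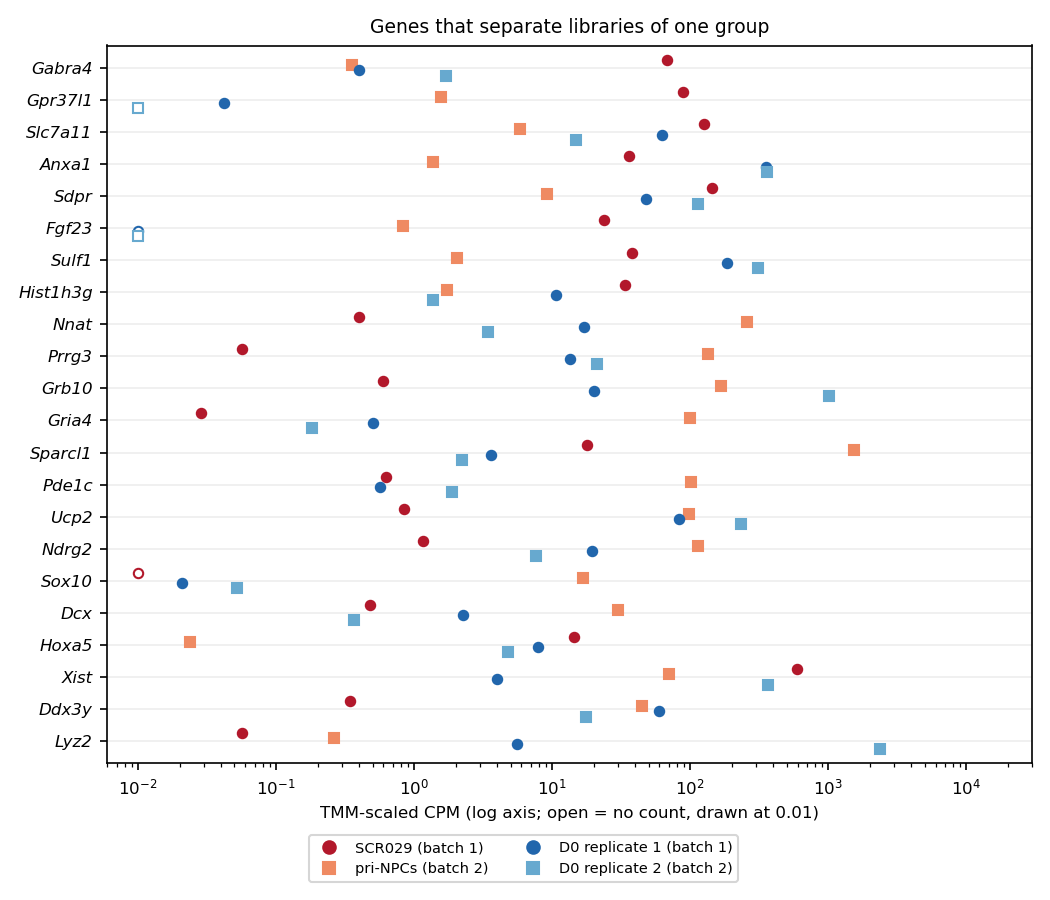
TMM-scaled CPM on a log axis for the 16 genes with the largest ratio between the controls among those with at least 20 CPM in the higher one, and 6 further genes that differ within a group, with SCR029 and the pri-NPCs above D0 replicates 1 and 2 in each row; open symbols mark no count and are drawn at 0.01. Sparcl1 (17.9 CPM in SCR029 and 1531 CPM in the pri-NPCs) separates the controls, and Lyz2 (5.58 and 2372 CPM in D0 replicates 1 and 2) separates the D0 libraries.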

How the data were processed

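RNA-seq libraries were made from 50 ng of RNA with the Ovation RNA-seq V2 kit, which primes with random and poly-T primers, and read at 100 bp, per the labels' protocols. Per the submitters' processing notes, the tools used were TopHat2 2.0.13, featureCounts of the Subread package and edgeR, on mm9. The deposited table holds raw counts per gene, non-normalized per the file headers, with the authors' feature length, another unit, in bases without introns. A further 48 columns of per-sample values were not used. Genes without a symbol, 415 in all, took at most 0.151% of a library's counts.

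From the 37991 genes, those with enough counts by edgeR's filterByExpr (17636) were fitted in R 4.3.3 with edgeR 4.0.16, TMM scaling and the robust quasi-likelihood test, over all 16 libraries in 6 groups so that the spread is shared. The common biological coefficient of variation was 0.441. P-values were adjusted by Benjamini-Hochberg over all genes tested, and every adjusted p in the text is from this test unless another tool is named. CPM are counts divided by TMM-scaled library totals. Where a group had no count, the fold is a bound against 3 counts over the group, which is 0.0389 CPM in the controls and 0.0347 CPM at D0. With 1 to 3 counts the ratio and its 95% interval are given. Intervals and bounds cover counting error only. SCR029 and D0 replicate 1 share a batch, and so do the pri-NPCs and D0 replicate 2, per the labels. The deviations of same-batch libraries from their group means correlated with r = 0.133 over 17636 genes. The replicate number of D0 replicate 1 differs between label fields, and that of the title was used.

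Members and gene lists were chosen with earlier results of these data known. The genes named are the 10 higher and 10 lower with the largest fitted change that reach 10 CPM in the higher group and lie 2-fold apart within each batch, the leading called genes of each list, a panel of 28 genes, and the 8 genes in each direction with the largest ratio between the controls that reach 20 CPM in the higher one. Other genes are named where a count of a few members called for it, after their values were seen. Some genes that this rule names are not reported here. The 31 lists hold 483 distinct genes, of which 482 were found and 442 tested. Where a symbol stood on several rows, that with the most counts was used. Promoter sequences were read from RefSeq on GRCm38.p6. Alternatives were DESeq2 1.42.0, limma voom 3.58.1, other scalings and filters, batch or the replicate number as a term, a fit of 4 libraries, and each library left out.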

Additional observations from a re-analysis of the deposited data

How the results depend on the processing

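Of 4222 genes called, a fit of the 4 libraries alone left 1498 (698 higher and 800 lower), and 1082 (499 and 583) with batch as replicate block. Leaving out each library in turn gave 2628 to 3555 called, 1002 to 1672 of them higher and 1557 to 2241 lower. Without a scaling factor 1079 were higher and 2014 lower. The remaining alternatives run gave 3643 (no filter) to 5455 (batch term), with 5228 by DESeq2 and 4020 by limma voom. Of the gene list members, 268 were called, 147 in the 4-library fit with the replicate block and 212 to 243 with a library left out. The number of genes past 8-fold between SCR029 and the pri-NPCs, 191, was 637 with 0.1 CPM added and 46 with 5 CPM added, and 584 and 70 at thresholds of 2 and 4 on the log2 scale. Against the D0 library of its batch, SCR029 had 1023 genes past 8-fold (2055 and 454 with 0.1 and 5 CPM added), and the pri-NPCs 1102 (2083 and 481). The cause of these shifts was not tested. The 4-library fits and those without a library rest on fewer samples.

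Of the 143 named genes, 136 were called and 80 of these kept their call in all alternatives run. Emx2 had a log2 change of -1.59 without the pri-NPCs and 1.78 without SCR029. With the replicate number as a block over all libraries 5081 genes were called, and of the named genes Actc1 lost its call (adjusted p = 0.071) and 1 other gained one. Beside these and the sterol synthesis count, the replicate block over all libraries changed no other named call. A call lost in the fit of 4 libraries (32 named genes) or without D0 replicate 2 (20 named genes) cannot be assigned to a weaker effect. With 1 library of each control, the spread of a control about itself cannot be measured, and a difference under the floor of 3 counts was not detectable at this depth.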
